A study of Mus musculus with 4 samples.

Results

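The 6 lineage antibodies of a barcoded staining panel, CD41, CD127, B220, Gr1, CD11b and CD16_32, were set beside the transcripts of the proteins they bind. The members were taken by name: 7 genes (Itga2b, Il7r, Ptprc, Ly6g, Itgam, Fcgr3 and Fcgr2b) of the 32285 counted, and 6 of the 13 antibodies that are not hashtags. Mouse bone marrow cells sorted as CD45.2+Kit+, 10 weeks after transplantation, were profiled by 10x Genomics single-cell RNA sequencing with antibody barcodes. The groups carry the names Mll3SI, Mll4SI, Mll3/4SI and control. Each of the 4 was 1 library, and the labels name neither the number of animals nor the construct that SI stands for. MLL3 and MLL4, encoded by Kmt2c and Kmt2d, are histone methyltransferases that act at enhancers. CD45.2 marks the donor-derived cells in a commonly used transplantation scheme. The Kit gate keeps stem cells and early progenitors and removes most mature blood cells. With 1 library per group no test between groups was possible, so every difference below is a size without a replicate check, and intervals cover counting error only.

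CD41 is the integrin alpha IIb chain, which pairs with the beta 3 chain encoded by Itgb3 and is best known from platelets and megakaryocytes, although early progenitors also carry it. CD127 is the alpha chain of the interleukin-7 receptor, needed for early B- and T-cell development. B220 is a long isoform of the phosphatase CD45, the product of Ptprc, and is used as a B-lineage marker. Gr1 is the name of an antibody against Ly6g on granulocytes that is also known to bind the related Ly6c proteins. CD11b is the integrin alpha M chain of myeloid cells. CD16_32 binds 2 receptors for the constant part of IgG, the activating one encoded by Fcgr3 and the inhibitory one encoded by Fcgr2b, and separates granulocyte-monocyte progenitors from other Kit+ progenitors. Reads at the 3′ end of transcripts do not tell the isoforms of Ptprc apart. Fcgr3 and Fcgr2b, and the Ly6 genes, have near-identical stretches in related genes, so their counts are uncertain where reads could be split between copies.

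All 7 members are protein-coding genes. In GRCm38, Itga2b lies on chromosome 11 from 102453297 to 102470122 and Itgam on chromosome 7 from 128062640 to 128118491. Ptprc spans 138062861 to 138175708 on chromosome 1, which also holds Fcgr2b from 170958617 to 170976547 and Fcgr3 from 171051174 to 171064935. Il7r is on chromosome 15 from 9505788 to 9530176, and Ly6g is on the same chromosome from 75155240 to 75159126. Ly6c2, the neighbour of Ly6g whose protein the Gr1 antibody can also bind, runs from 75108158 to 75111970.

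The stretches before the start sites of Ly6g, Ly6c2 and Itgam are shown because both targets of Gr1 differ in where they are transcribed, while Ly6g and Itgam are both highest in the same granulocyte-like cells. All 8 genes looked up (the 7 members and Ly6c2) matched an entry in RefSeq (GRCm38.p6), and each stretch is the 250 bases before the listed start. Capitals mark GAGGAA, a core motif of ETS factors such as PU.1, and TTGCNNAA, a core motif of C/EBP factors, on either strand.
Ly6g (chr15:75155011-75155260, plus strand): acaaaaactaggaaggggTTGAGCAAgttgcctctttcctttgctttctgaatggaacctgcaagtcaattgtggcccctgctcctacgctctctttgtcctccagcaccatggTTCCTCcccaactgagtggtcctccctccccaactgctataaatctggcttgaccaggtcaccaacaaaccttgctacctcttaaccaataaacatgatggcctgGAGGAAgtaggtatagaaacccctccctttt
Ly6c2 (chr15:75111972-75112221, minus strand): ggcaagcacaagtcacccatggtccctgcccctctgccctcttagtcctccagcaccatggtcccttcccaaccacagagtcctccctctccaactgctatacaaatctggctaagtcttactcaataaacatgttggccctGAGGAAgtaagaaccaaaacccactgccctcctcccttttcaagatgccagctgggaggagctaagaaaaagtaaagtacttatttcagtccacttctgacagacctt
Itgam (chr7:128062390-128062639, plus strand): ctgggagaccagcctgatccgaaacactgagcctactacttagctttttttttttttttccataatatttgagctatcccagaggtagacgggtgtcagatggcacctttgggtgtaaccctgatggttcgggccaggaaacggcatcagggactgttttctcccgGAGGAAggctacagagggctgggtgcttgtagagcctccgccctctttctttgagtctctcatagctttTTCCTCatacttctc
GAGGAA occurred 2 times before Ly6g, 1 time before Ly6c2 and 2 times before Itgam. It was present in 23.3% of 32817 promoter stretches of the same length. TTGCNNAA occurred 1 time before Ly6g and was not found before the other two, against 9.57% of all stretches. The motif AGATAA of GATA factors, present in 9.99% of all stretches, was not found in any of the 8. For Ly6g, Ly6c2 and Itgam the listed start lay 21, 1 and 0 bases from the gene's start in GENCODE. For Itga2b, Il7r, Ptprc, Fcgr3 and Fcgr2b it lay 239, 300, 403, 5532 and 476 bases away. The stretches of those genes lie wholly or largely inside the gene spans given above. Ly6g and Ly6c2 shared a run of 18 letters, gtcctccagcaccatggt, whereas Itgam shared at most 8 letters in a row with either. A match of letters is a description and not a measured binding site.

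The libraries held 7524 to 11678 barcodes, and 6743, 8023, 10186 and 6755 cells were kept in control, Mll3SI, Mll4SI and Mll3/4SI. The kept cells had median gene UMIs (counted molecules) of 12800 to 19185 and median antibody UMIs of 1747 to 2393. Pairs of libraries shared 16 to 29 barcodes. Kit RNA was at 100 to 112 CPM (UMIs of a gene, scaled to a fixed total per library or class), but the S100a8-led granulocyte-like class had only 33.8 to 55.7 CPM against 191 to 214 CPM in the HSC/MPP-like class. Mll4SI and Mll3/4SI also stood apart in sex-linked RNA: Xist was at 1148 and 1360 CPM there, against 0.032 and 0.19 CPM in control and Mll3SI, and Eif2s3y was at 0 UMIs there against 63.3 and 62.0 CPM. For these 2 libraries the sex-linked difference and the genotype cannot be told apart. The classes held 896, 916, 823 and 374 HSC/MPP-like cells in the same order, 811, 1306, 684 and 386 Elane-led and 3510, 3903, 7292 and 3494 S100a8-led granulocyte-like cells. Monocyte-like cells numbered 289 to 1066, erythroid-like 89 to 184, basophil/mast-like 66 to 148 and B-lymphoid-like 37 to 182. The leading genes of the erythroid-like class were Car1, Pf4 and Car2, so the platelet gene Pf4 stood among them, at 774, 922, 1571 and 1598 CPM.

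Some groups of cells had no like-for-like control. Clusters 9 and 19, with 1277 and 504 cells, carry no name and held 1273 and 503 cells of Mll3/4SI. Of the 116 cells of HSC/MPP-like cluster 25, 102 came from Mll4SI. Its leading genes held the stem-cell markers Adgrl4 and Angpt1 beside F13a1, and its cells had a median of 30795 gene UMIs against 15860 and 27516 in HSC/MPP-like clusters 7 and 8. S100a8-led cluster 1 was almost wholly of Mll4SI (2731 of 2798 cells), and clusters 14, 15 and 20 were mostly of Mll3/4SI. Cluster 17, led by Car1, Pf4 and Apoe, and cluster 22, with a median of 1527.5 gene UMIs, met no naming rule and entered no class. Each library carried 2 hashtag antibodies, which split 43.2% to 54.0% of its cells to each hashtag. What the hashtags mark is not stated in the labels, but they give a spread within each library, and values of both hashtag sets are given beside the main differences.

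Antibody levels are given as a centred log2 ratio per cell, the log2 of UMIs plus 1 minus its mean over the 13 antibodies, so that 1 unit is a doubling relative to the panel and a fall of 1 antibody raises the others slightly. A difference from control counted as a call when the medians of a class differed by at least 0.5. For RNA, the UMIs of all cells in a class were added up, and a call needed a difference of at least 1 in log2(CPM + 1) among genes with a mean of at least 1 CPM. An interval given beside a log2 difference is the exact 95% interval of the ratio of the counts with no CPM added. Of the 6 lineage antibodies, 2 were called in HSC/MPP-like cells of Mll3SI (15.4% of all 13 antibodies), 1 in Mll4SI (23.1%) and 1 in Mll3/4SI (7.69%). The counts in the Elane-led class were 2, 1 and 4 (15.4%, 15.4% and 53.8%), and in the S100a8-led class 2, 2 and 3 (23.1%, 15.4% and 30.8%). In monocyte-like cells they were 2, 1 and 2 (30.8%, 15.4% and 30.8%), in erythroid-like cells 0, 1 and 2 (7.69%, 15.4% and 23.1%), in basophil/mast-like cells 2, 2 and 1 (23.1%, 23.1% and 23.1%) and in B-lymphoid-like cells 0, 1 and 2 (15.4%, 15.4% and 15.4%). The percentages are of the whole panel, which includes the 6. Calls are given for these 7 classes; T/NK-like cells and an MHC class II-led cluster are given by their levels alone. Every comparison uses the same control library. Where 4 values follow each other below, they stand in the order control, Mll3SI, Mll4SI, Mll3/4SI.

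**Figure D1:**
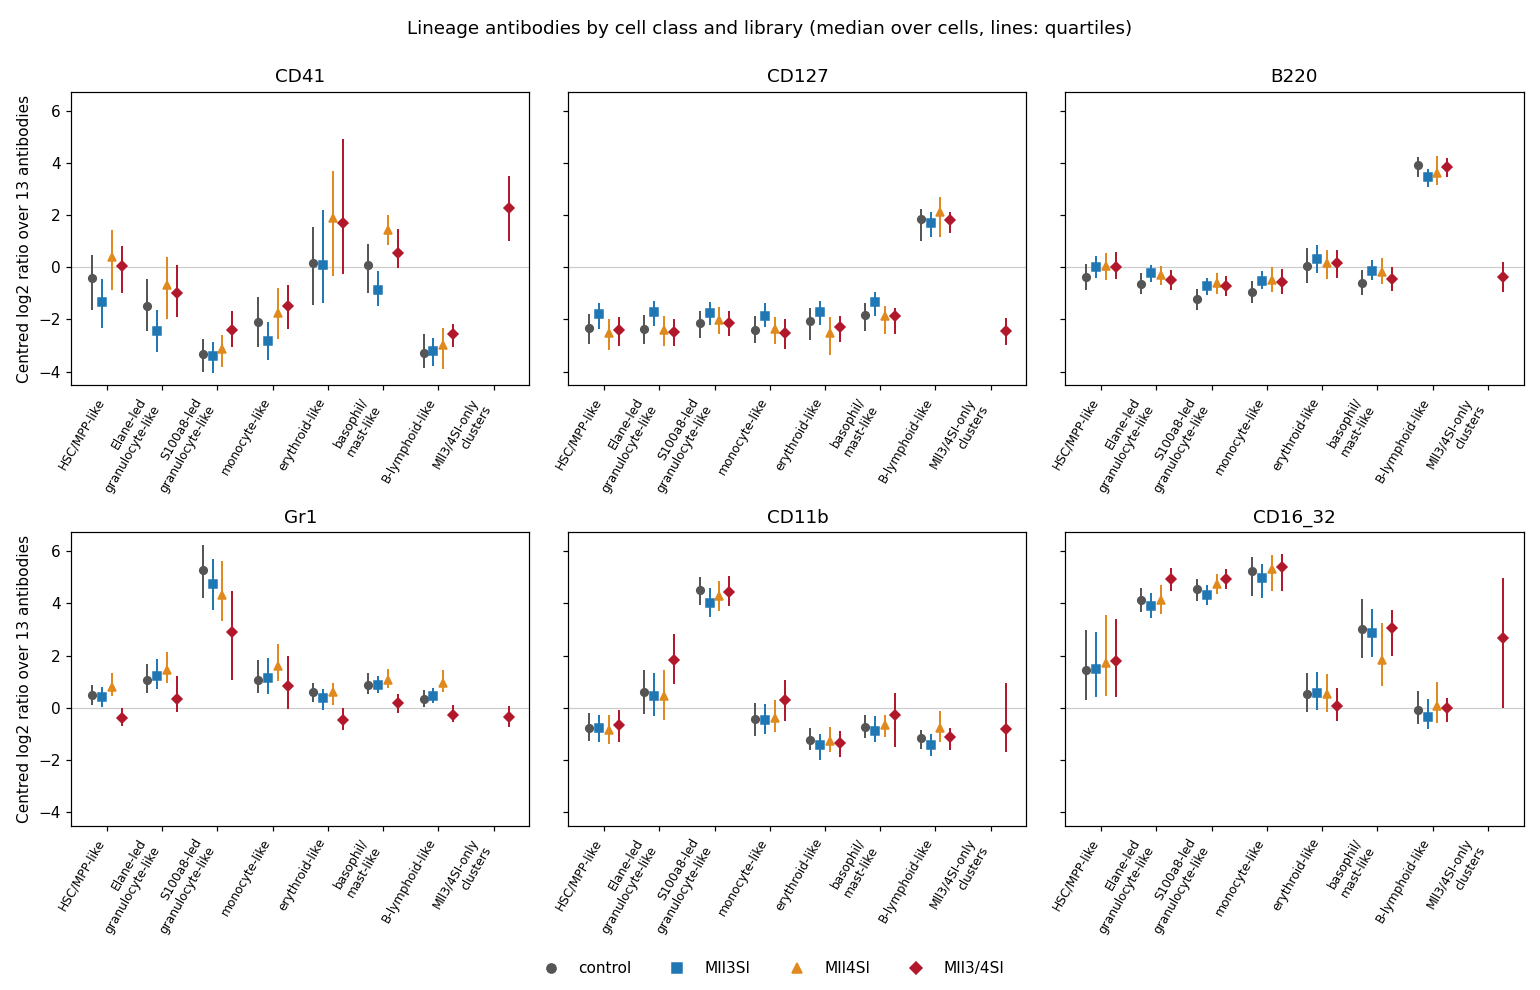
Centred log2 ratio (y axis) of each lineage antibody in 8 groups of cells (x axis). Points are medians over cells, lines run from the lower to the upper quartile, and colours are the 4 libraries. CD127 and B220 stand out in B-lymphoid-like cells, with medians from 1.69 to 2.10 and from 3.44 to 3.91, while Gr1 in the S100a8-led class steps down from 5.26 in control to 2.91 in Mll3/4SI.

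CD41 differed between libraries in most classes. In control it was highest in erythroid-like and basophil/mast-like cells, with median centred log2 ratios of 0.16 and 0.09, lower in HSC/MPP-like cells at -0.41 and lowest in S100a8-led granulocyte-like and B-lymphoid-like cells at -3.33 and -3.29. In erythroid-like cells the 4 medians were 0.16, 0.09, 1.90 and 1.70, from 24, 33, 104 and 148 UMIs per cell. Mll4SI was higher than control by 1.74 and Mll3/4SI by 1.54. In HSC/MPP-like cells the medians were -0.41, -1.34, 0.40 and 0.03, or 17, 11, 35 and 30.5 UMIs, with quartiles of -1.61 to 0.42 in control and -0.84 to 1.40 in Mll4SI. The cells overlapped widely between these libraries although the medians differed by 0.82. Over the 7 named classes compared, CD41 was above control in 7 of 7 in Mll4SI (0.19 to 1.74) and in 7 of 7 in Mll3/4SI (0.44 to 1.54). In S100a8-led and B-lymphoid-like cells, the Mll4SI differences of 0.19 and 0.32 came from medians of 1 UMI per cell in both libraries. In Mll3SI CD41 was above control in 1 of 7 (-0.98 to 0.10), with calls in the HSC/MPP-like, Elane-led, monocyte-like and basophil/mast-like classes.

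The hashtag sets of one library differed by amounts that reached the size of some of these differences. In HSC/MPP-like control cells the CD41 medians were -0.05 with Hashtag1 and -0.83 with Hashtag2. The Mll3SI sets were at -1.60 and -1.03, both below both control sets. Within Hashtag2 the Mll3SI difference was -0.21, and counted as a share of summed antibody UMIs without hashtags it was -0.42, neither of them a call. The Mll4SI sets at 0.34 and 0.64 lay above both control sets, with differences of 0.40 within Hashtag1 and 1.47 within Hashtag2. The Mll3/4SI sets at -0.12 and 0.18 overlapped those of control. In erythroid-like cells the control sets were at 0.17 and -0.05, the Mll4SI sets at 1.08 and 3.13 and the Mll3/4SI sets at 1.60 and 1.70, with no overlap. Both Mll4SI sets were above both control sets in 5 of 6 classes with enough cells, and both Mll3/4SI sets in 4 of 6. Over all 13 antibodies, 75.6% of such sets in Mll4SI and 76.9% in Mll3/4SI did not overlap control, so separated hashtag sets were common in this panel.

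The borders of the classes mattered for CD41 in Mll3/4SI. With classes assigned from the nearest control cells instead of clusters, its difference became 2.37 in HSC/MPP-like, 1.67 in Elane-led and 2.56 in erythroid-like cells, as cells of clusters 9 and 19 then joined named classes. In erythroid-like cells it was 0.66 with no doublets removed and 0.82 with another random seed of the clustering, still calls. The Elane-led difference of 0.51 was near the threshold and came to -0.06 within Hashtag1 and 0.91 within Hashtag2. Unnamed cluster 17, next to the erythroid-like class by its leading genes, had CD41 of 0.04, -0.43, 1.75 and 0.69, again highest in Mll4SI. In monocyte-like cells the Mll3SI difference of -0.70 was -0.38 within Hashtag2, and the Mll3/4SI difference of 0.62 was 0.19 within Hashtag1. With 5 UMIs added in place of 1, the calls of Mll3/4SI in S100a8-led and B-lymphoid-like cells, 0.94 and 0.74, came to 0.41 and 0.23.

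**Figure D2:**
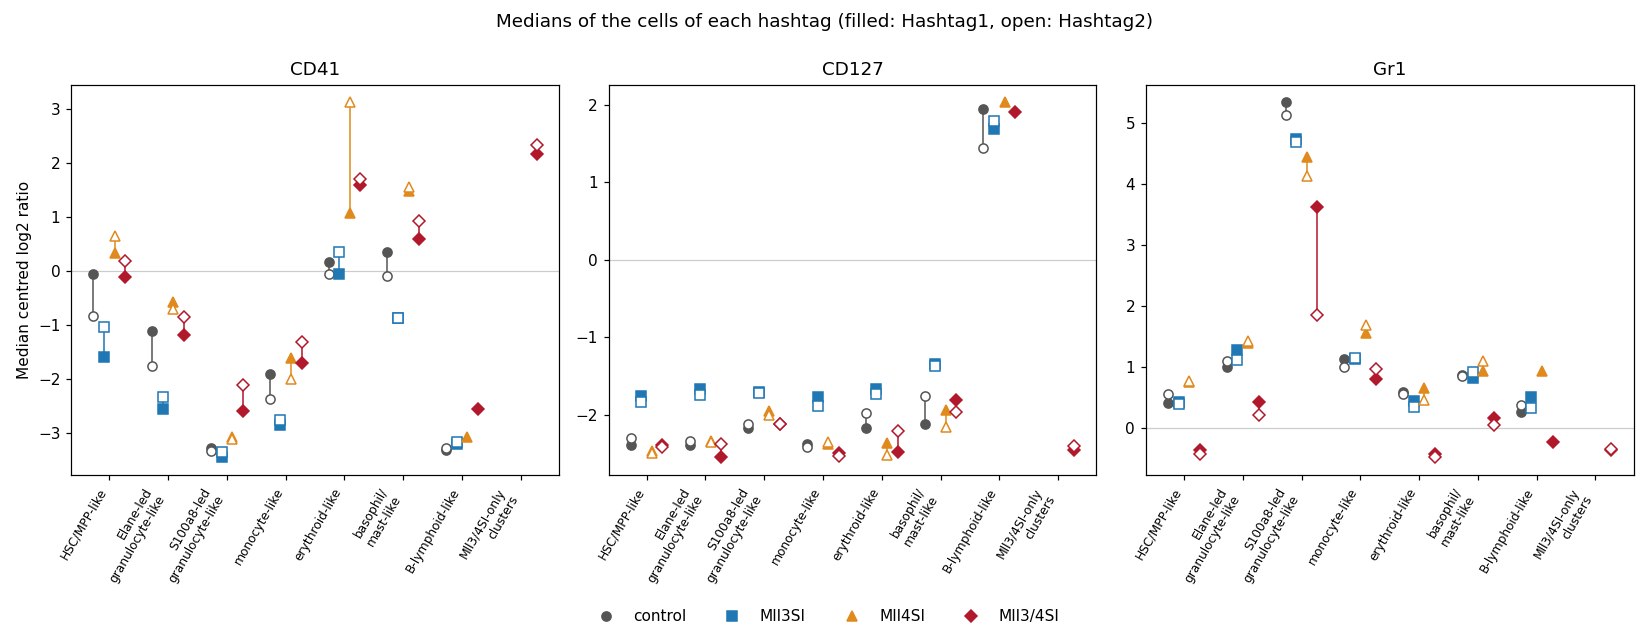
Median centred log2 ratio (y axis) of CD41, CD127 and Gr1 in the cells of each hashtag (filled for Hashtag1, open for Hashtag2), by class (x axis) and library (colour). Lines join both sets of 1 library where each had at least 20 cells. Both control sets for CD41 in HSC/MPP-like cells lie at -0.05 and -0.83, while the CD127 sets of Mll3SI lie above those of control in 6 of 7 classes.

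The RNA of the same integrin was compared by summed counts, a measure unlike the difference of antibody medians, so the sizes of both are not directly comparable. Itga2b was highest in basophil/mast-like cells, with 113, 94.9, 116 and 132 CPM, and in erythroid-like cells, with 67.8, 78.1, 106 and 113 CPM. HSC/MPP-like cells had 20.4, 13.6, 19.9 and 23.2 CPM, with exact Poisson 95% intervals of 18.5 to 22.4 in control and 11.9 to 15.4 in Mll3SI. The order of the classes by CD41 and by Itga2b was alike, with a Spearman rho of 0.70 to 0.80 over 8 to 10 classes per library, which share their staining and sequencing. Itga2b did not reach a call in any of the 7 classes in any library. The log2 difference of Mll4SI in HSC/MPP-like cells was -0.03 for Itga2b while that of the CD41 antibody was 0.82.

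Within a class, cells with more Itga2b UMIs carried more CD41. In HSC/MPP-like control cells the CD41 median was -0.82 in 649 cells without an Itga2b UMI, 0.18 in 143 cells with 1, 0.59 in 58 cells with 2 and 0.63 in 46 cells with 3 or more. Mll4SI had 0.06, 1.10, 1.5 and 1.75 at these steps, higher than control at each of the 4. In Mll3SI the first 3 steps were at -1.51, -0.68 and -0.22, each lower than in control. In erythroid-like cells CD41 went from -1.51 without a UMI to 2.70 with 3 or more in control and from -1.82 to 4.03 in Mll4SI, so that Mll4SI was above control in the cells with most transcript and below it in those without. To compare positive with negative cells, a gate was set at the 95th percentile of CD41 in granulocyte-like control cells. The CD127 gate was set in the same cells, and the gates of B220, Gr1, CD11b and CD16_32 at that percentile of erythroid-like control cells. Above the CD41 gate lay 53.0%, 25.5%, 70.2% and 66.0% of HSC/MPP-like cells, and 62.7%, 58.7%, 75.3% and 77.3% of erythroid-like cells. Itga2b was 3.53, 3.36, 5.33 and 7.90 times as high above as below the gate in HSC/MPP-like cells, and 18.3 and 7.03 times as high in erythroid-like cells of control and Mll3SI, the libraries with enough such cells on both sides of it.

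The highest median CD41 of the groups of cells was in the clusters found almost only in Mll3/4SI. Their 1776 cells had a median of 2.27, or 160 UMIs, and 93.2% lay above the CD41 gate. Itga2b was at 52.5 CPM there (50.4 to 54.8), between the HSC/MPP-like and the erythroid-like class of the same library. CD41 increased with Itga2b in them too, from 1.40 without a UMI to 2.83, 3.22 and 3.59 with 1, 2 and 3 or more. Both hashtag sets were close, at 2.17 in 413 cells and 2.33 in 1340 cells.

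The partner chain and platelet genes were followed in the related list of CD41. Itgb3, which encodes the beta 3 partner of CD41, was at 18.6, 24.4, 58.3 and 69.4 CPM in erythroid-like cells. Its log2 difference of 1.60 in Mll4SI (1.26 to 2.04) was a call, as was that of 1.85 in Mll3/4SI (1.53 to 2.28). Itgb3 was also called higher in monocyte-like cells of Mll4SI, at 9.16 against 4.01 CPM, and in basophil/mast-like cells of Mll4SI and Mll3/4SI, on 12 and 11 against 8 UMIs. Pf4, a platelet chemokine, was called higher in the same erythroid-like cells of Mll4SI (1.02) and Mll3/4SI (1.05), the classes in which CD41 was higher. In HSC/MPP-like cells Pf4 was at 4.72, 3.26, 12.8 and 16.2 CPM, with calls in Mll4SI and Mll3/4SI. It was also called higher in Elane-led cells of Mll3SI, on 75 against 18 UMIs, and in basophil/mast-like cells of Mll3/4SI, on 31 against 12. Gp9, a chain of the platelet von Willebrand factor receptor, was called lower once in the 7 classes, in basophil/mast-like cells of Mll4SI on 2 against 9 UMIs. Across all cells of a library, CD41 correlated with Itga2b with a Pearson r of 0.52, 0.54, 0.5 and 0.60, which placed the gene at rank 151, 11, 235 and 97 of 11341 to 12132 genes. The 5 genes with the highest mean r over the libraries were Angpt1 (0.67), Adgrg1 (0.67), Meis1 (0.63), Dapp1 (0.62) and Gas5 (0.61). Angpt1, Adgrg1 and Meis1 are known from stem and progenitor cells. These correlations run across classes whose depth and composition differ, and are descriptions.

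**Figure D3:**
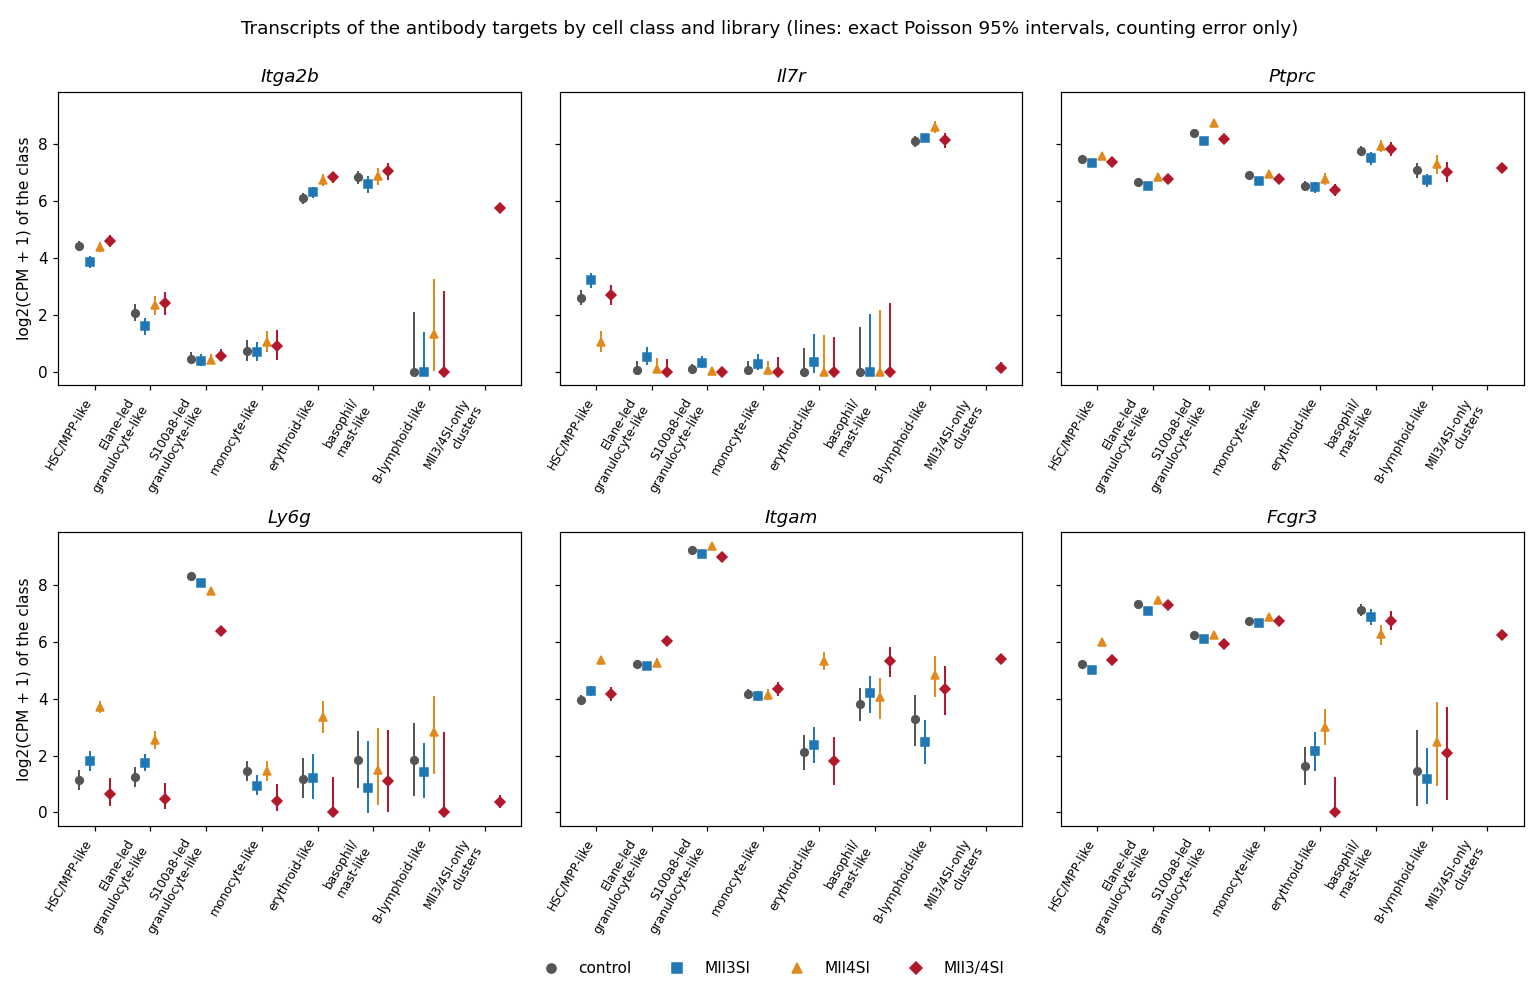
log2(CPM + 1) of 6 member genes (y axis) in the same groups of cells (x axis) and libraries (colours), with exact Poisson 95% intervals as lines. Il7r is high in B-lymphoid-like cells, Ptprc is present in all of the groups drawn, and Ly6g in the S100a8-led class is lowest in Mll3/4SI, at 81.0 CPM against 312 CPM in control.

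CD127 marked the B-lymphoid-like cells. Their medians were 1.83, 1.69, 2.10 and 1.81, or 57, 61, 84.5 and 74 UMIs. The other 6 classes compared lay between -2.53 and -1.34. T/NK-like cells, of which control held 25, Mll4SI 22 and Mll3/4SI 47, were between them and the B-lymphoid-like cells at -1.11, -0.28 and -1.17. Il7r followed the same pattern with 274, 297, 388 and 281 CPM in B-lymphoid-like cells, and with counts of at most 12 UMIs in the Elane-led, S100a8-led, monocyte-like, erythroid-like and basophil/mast-like classes of any library. The Spearman rho over classes ranged from -0.01 to 0.45 for this pair, with most classes near 0 for the RNA. In B-lymphoid-like cells of Mll3SI, CD127 was 0.91 without an Il7r UMI, 1.5 with 1, 1.80 with 2 and 1.91 with 3 or more.

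Mll3SI had more CD127 than control in 6 of 7 classes, by up to 0.65. The HSC/MPP-like medians were -2.34, -1.81, -2.53 and -2.39, from 4, 7, 4 and 5 UMIs per cell. The calls in Mll3SI were those of the HSC/MPP-like (0.54), Elane-led (0.65), monocyte-like (0.55) and basophil/mast-like (0.51) classes. Both Mll3SI hashtag sets were above both control sets in 6 of 7 classes, where 74.7% of all 13 antibodies and classes were apart in one direction or the other. In erythroid-like cells, in which Il7r had 0 UMIs in control and 1 UMI in Mll3SI, the difference was 0.31. With 5 UMIs added in place of 1, the differences of the HSC/MPP-like and Elane-led classes were 0.32 and 0.37 and no longer calls, and counted as a share of summed antibody UMIs without hashtags the HSC/MPP-like one was 1.56. In B-lymphoid-like cells, where CD127 was high, Mll3SI differed from control by -0.15. The rise was not particular to CD127. CD201, at a median of at most 4 UMIs per cell, was above control in Mll3SI in each of the 7 classes, by 0.43 to 0.72. Sca1 was higher by 0.24 to 0.44 in all but B-lymphoid-like cells, where it differed by -0.14. CD150 and CD135 did not rise alike, with differences of -0.15 to 0.16 and -0.19 to 0.56.

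Few HSC/MPP-like cells carried Il7r. Control had 108 UMIs in 21 cells, Mll3SI 145 in 36, Mll4SI 21 in 11 and Mll3/4SI 58 in 16, which is 5.10, 8.30, 1.08 and 5.55 CPM. Mll4SI was lower by a log2 difference of -1.55 (-2.99 to -1.56). It was 1 of 3 calls among 7 members with enough counts in this class in Mll4SI, where 3.05% of all genes were called. In Mll3SI and Mll3/4SI 0 of 7 were called (0.653% and 1.63% of all genes). As a mean over cells the Il7r difference was -0.79 and not a call, and the 5 cells with most UMIs held 43.4% to 66.7% of the Il7r counts. The Il7r UMIs lay in the CD127-high cells: in control, cells above the CD127 gate had 94.6 CPM and those below 0.0499 CPM, on 107 UMIs and 1 UMI. In Mll3SI the levels were 63.7 and 0.651 CPM.

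Among related genes of the interleukin-7 pathway (Il2rg, Crlf2, Jak1, Jak3, Stat5a, Stat5b and Bcl2), Bcl2, an inhibitor of cell death, was called once in the 7 classes: 96.7 CPM in B-lymphoid-like cells of Mll4SI against 38.0 CPM in control, on 64 and 44 UMIs. Il2rg, the common gamma chain that pairs with CD127, was called higher in erythroid-like cells of Mll3/4SI, at 18.3 against 7.85 CPM on 52 and 38 UMIs. The genes that correlated most with CD127 were Vpreb1, a part of the surrogate light chain of pre-B cells (mean r 0.39), Bach2 (0.25), St6gal1 (0.23), Foxo1 (0.22) and Gm42418 (0.22). Il7r itself was detected in at least 2% of cells only in Mll3SI, where its r of 0.53 had rank 11.

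B220 also marked the lymphoid classes. B-lymphoid-like cells had medians of 3.91, 3.44, 3.60 and 3.83, and 94.6% of those in Mll3/4SI, the lowest share of the 4 libraries, lay above a gate set at the 95th percentile of erythroid-like control cells. T/NK-like cells were at 3.22, 4.14 and 3.73 in control, Mll4SI and Mll3/4SI. The other 6 classes lay between -1.23 and 0.31. The antibodies B220 and CD127 were high together in 90.1%, 97.3%, 92.9% and 94.6% of B-lymphoid-like cells and in 48.0%, 77.3% and 31.9% of T/NK-like cells. The share in HSC/MPP-like cells was at most 0.655%.

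Ptprc did not follow B220. In B-lymphoid-like cells it was at 134, 105, 156 and 129 CPM, below the S100a8-led class with 335, 277, 424 and 289 CPM, whose B220 was the lowest of the 7 classes in control, at -1.23. T/NK-like cells had 2083 to 2929 CPM in the libraries with at least 20 of them. Across the cells of a library, r between B220 and Ptprc was -0.14, -0.15, -0.10 and 0.01, at rank 7497 to 11050 of the genes. In HSC/MPP-like control cells B220 was -0.35, -0.39, -0.30 and -0.37 in cells with 0, 1, 2 and 3 or more Ptprc UMIs. Ptprc RNA thus gave no order of cells by B220, with the limit that the counts cover all CD45 isoforms. The genes with the highest mean r were Ptprcap (0.46), which encodes a protein bound to CD45, Aff3 (0.46), Tspan13 (0.46), Bach2 (0.46) and Vpreb1 (0.44).

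B220 was above control in 6 of 7 classes in each of the other libraries, and below it in B-lymphoid-like cells, with differences of -0.47, -0.30 and -0.07. The S100a8-led class had medians of -1.23, -0.71, -0.62 and -0.72, from 8, 16, 11 and 15 UMIs, and its 3 differences were the only B220 calls in the 7 classes. The hashtag sets of these libraries were at -0.69 and -0.71, -0.57 and -0.67, and -0.72 and -0.70, above both control sets at -1.20 and -1.27. With 5 UMIs added in place of 1, the differences were 0.46, 0.46 and 0.45 and no longer calls. B220 was not the only antibody of low count to rise in this class. CD201, at medians of 2 to 4 UMIs, differed from control by 0.47, 0.29 and 0.71, whereas CD135 differed by -0.10, -0.24 and -0.40. In HSC/MPP-like cells the B220 differences were 0.37, 0.41 and 0.38. No related gene of B220 (Ptprcap, Hnrnpll, Lyn and Csk) was called in any of the 7 classes.

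Gr1 was lower in Mll3/4SI in every class compared. In the S100a8-led granulocyte-like class the medians were 5.26, 4.76, 4.33 and 2.91, or 859, 748, 380.5 and 202.5 UMIs per cell, with quartiles of 4.26 to 6.21 in control and 1.10 to 4.42 in Mll3/4SI. Both hashtag sets of Mll3/4SI, at 3.62 and 1.85, were below both control sets at 5.35 and 5.14, and they differed from each other by more than control differed from Mll4SI. Over the 7 classes the differences of Mll3/4SI ran from -2.35 to -0.24, and its hashtag sets were below both control sets in 6 of 6. Such sets of Mll3/4SI were apart from control, in one direction or the other, in 76.9% over all 13 antibodies and 72.2% over the 6 lineage antibodies. In HSC/MPP-like cells the Gr1 difference of Mll3/4SI was -0.87, from 33 to 23 UMIs, and in erythroid-like cells -1.06, although Ly6g RNA was at 0 to 1.24 CPM in both classes of both libraries. As a share of summed antibody UMIs without hashtags the S100a8-led differences were -0.16, -0.30 and -0.99, so that only the one of Mll3/4SI remained a call.

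Ly6g RNA was lower with the antibody. The S100a8-led class had 312, 263, 220.4 and 81.0 CPM, with an interval of 78.8 to 83.2 in Mll3/4SI. The log2 difference of Mll3/4SI was -1.93 (-1.99 to -1.90), the only call among 5 members with enough counts in this class, where 1.97% of all genes were called. In Mll3SI and Mll4SI 0 of 5 were called (0.607% and 2.2% of all genes). The hashtag sets of Mll3/4SI had 106 and 60.9 CPM, against 327 and 298 in control. Itgam, the other granulocyte gene among the members, was at 497 against 594 CPM in the same cells.

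Part of the difference lay in which clusters were present. Of 16 clusters of any class with at least 50 cells in both libraries, 0 had more Gr1 in Mll3/4SI and 0 more Ly6g, with a median Gr1 difference of -0.87. Among them, clusters 0, 2, 3, 6, 10 and 16 were S100a8-led. Outside these Ly6g had few counts, as with 3 against 35 UMIs in monocyte-like and 1 against 5 in basophil/mast-like cells, Mll3/4SI against control. In S100a8-led cluster 6, Gr1 was 5.91 in 444 control cells and 4.75 in 211 Mll3/4SI cells, while Ly6g went from 369 to 166 CPM. In cluster 3 the values were 5.93 and 5.24, and 382 and 209 CPM. Clusters 15 and 20, with 1082 and 348 cells of Mll3/4SI, had the lowest Gr1 at 0.84 and 0.70 and Ly6g at 7.05 and 7.81 CPM. Their Itgam was at 434 and 506 CPM and their CD11b medians at 4.68 and 4.25, so they were CD11b-high cells with little Gr1. Cluster 14, with 1051 cells of Mll3/4SI, had Gr1 of 4.25 and Ly6g of 129 CPM. With only clusters of at least 50 cells in both libraries, the difference of Mll3/4SI was -1.36 for Gr1 and -1.23 for Ly6g, while Gr1 was at -0.46 for Mll3SI and -0.38 for Mll4SI, no longer calls.

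**Figure D4:**
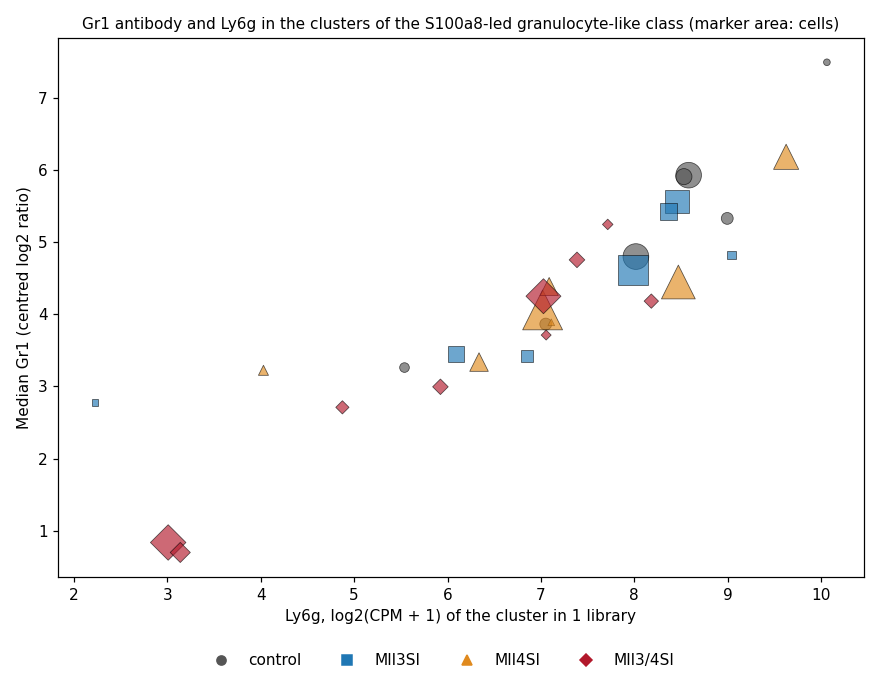
Median Gr1 (y axis) against Ly6g in log2(CPM + 1) (x axis) for each cluster of the S100a8-led class with at least 50 cells of 1 library. Colours are libraries and the marker area follows the number of cells. The 2 lowest points are clusters 15 and 20 of Mll3/4SI, with Gr1 of 0.84 and 0.70.

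Cell by cell, Gr1 and Ly6g moved together. In S100a8-led control cells the Gr1 median was 3.69, 4.43, 4.83 and 5.93 in cells with 0, 1, 2 and 3 or more Ly6g UMIs. In Mll3/4SI the steps were 1.49, 3.77, 4.21 and 5.27, and 2065 of the 3494 cells were in the first step. The cells of Mll3/4SI were lower at every step, and the gap was widest at 0 UMIs. These steps were not compared within clusters, and clusters 15 and 20, with little Ly6g, were mostly of Mll3/4SI. Above the Gr1 gate lay 99.8%, 99.6%, 99.7% and 69.2% of the class. In Mll3/4SI, the cells above the gate had 116 CPM of Ly6g and those below 2.46 CPM. Over all cells, r between Gr1 and Ly6g was 0.82, 0.79, 0.73 and 0.70, at rank 20, 19, 2 and 8. The genes with the highest mean r were Ltf (0.81), Cybb (0.80), Adpgk (0.79), Chil3 (0.79) and Cd177 (0.79), of which Ltf encodes the granule protein lactoferrin and Cybb a subunit of the phagocyte oxidase.

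In monocyte-like cells the Gr1-high cells had more Ly6c2 than the others, while Ly6g had few counts on either side of the gate. Monocyte-like cells had Gr1 medians of 1.07, 1.15, 1.60 and 0.83 with 0.326 to 1.75 CPM of Ly6g but 1524, 1502, 1646 and 1919 CPM of Ly6c2. In them Ly6c2 was 1.90, 1.86, 2.15 and 1.87 times as high above the Gr1 gate as below it, while Ly6g was 1.39, 0.990 and 1.03 times as high in control, Mll3SI and Mll4SI, on 13 against 22, 7 against 14 and 18 against 16 UMIs. Across libraries the order was another one, since Mll3/4SI had the most Ly6c2 and the least Gr1 of the 4. In HSC/MPP-like cells of Mll3SI and Mll4SI, Ly6g was 24.5 and 35.4 times as high above as below the Gr1 gate. Ly6c2 was 5.45 and 6.85 times as high. The Ly6g values rested on 24 against 19 and 214 against 21 UMIs. In Mll3SI the 5 highest cells held 48.8% of the Ly6g of the class, and in Mll4SI most of it lay in cluster 25, described below. In control, the HSC/MPP-like cells above the gate held 0 Ly6g UMIs, those below it 25, and Ly6c2 was 5.35 times as high above. Over all classes of a library, granulocyte-like ones included, the rho of Gr1 was 0.57 to 0.73 with Ly6c2 and 0.00 to 0.41 with Ly6g. In Mll4SI, Gr1 was 0.53 above control in monocyte-like cells, whereas the S100a8-led class had a difference of -0.94. The monocyte-like one was near the threshold and came to 0.43 within Hashtag1 and 0.49 with 5 UMIs added. Ly6g was called lower in monocyte-like cells of Mll3/4SI, on 3 against 35 UMIs, the only call of 5 members there (1.31% of all genes). At -1.05 it was close to the threshold, and -0.95 with no doublets removed and -0.89 with another random seed were not calls. None of 5 was called in monocyte-like cells of Mll3SI or Mll4SI (0.481% and 1.86%).

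The Mll4SI library had more Ly6g and Itgam RNA than control in HSC/MPP-like and erythroid-like cells. Monocyte-like cells of Mll4SI did not, with 34 against 35 UMIs of Ly6g and 328 against 335 of Itgam. Ly6g in HSC/MPP-like cells was at 1.18, 2.46, 12.1 and 0.574 CPM and Itgam at 14.5, 18.3, 40.3 and 16.8 CPM, and the log2 differences of Mll4SI, 2.58 and 1.42, were calls. Cluster 25 held these counts: its 102 cells of Mll4SI had 63.6 CPM of Ly6g, 182 CPM of Itgam, Gr1 of 3.21 and CD11b of 2.63. In HSC/MPP-like clusters 7 and 8, Mll4SI had 1.82 and 1.19 CPM of Ly6g against 1.85 and 0.767 in control. Without cluster 25 the Itgam difference was -0.33, with no doublets removed it was -0.24 and the one of Ly6g 0.5, so both calls rested on this cluster. Ly6g was also called higher in Elane-led cells of Mll4SI, the only call of 6 members (2.04% of all genes), on 72 against 27 UMIs, of which the 5 highest cells held 51.4%. That difference was -0.03 with no doublets removed. None of 6 was called in Elane-led cells of Mll3SI or Mll3/4SI (0.558% and 1.77%).

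Of the other Ly6 genes listed, Ly6e, Ly6d, Ly6c2 and Ly6a were called in 1 to 3 of the 7 classes each, and Ly6c1 and Ly6i in none. Ly6e was at 49.3 CPM in S100a8-led cells of Mll3/4SI against 16.6 CPM in control, a log2 difference of 1.51 (1.46 to 1.68), in the cells where Ly6g was lower. Ly6d, which marks early B-lineage commitment, was at 9.87, 25.9, 0.206 and 31.1 CPM in HSC/MPP-like cells, and all 3 differences, 1.3, -3.17 and 1.56, were calls. The value of Mll4SI rested on 4 UMIs. Ly6c2 was called higher in erythroid-like cells of Mll3SI and Mll4SI (31.3 and 53.1 against 12.0 CPM) and lower in those of Mll3/4SI (3.88 CPM), in basophil/mast-like cells of Mll3/4SI and in B-lymphoid-like cells of Mll3/4SI. Ly6a, which encodes Sca1, was called lower in HSC/MPP-like cells of Mll4SI, at 5.29 against 12.4 CPM, and in B-lymphoid-like cells of Mll3SI and Mll4SI, on 22 and 3 UMIs against 37. It was called higher in erythroid-like cells of Mll3/4SI on 7 against 3 UMIs.

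CD11b was highest in the S100a8-led class with medians of 4.50, 4.02, 4.27 and 4.45 and no call there. The Elane-led class, which holds the earlier granulocyte-like cells by its leading gene, was at 0.60, 0.44, 0.44 and 1.82, or 30, 33, 28 and 95.5 UMIs. Mll3/4SI was higher than control by 1.22, and its hashtag sets at 1.54 and 2.01 were above both control sets at 0.5 and 0.65. Itgam in these cells was 35.9, 34.7, 37.3 and 63.3 CPM, a log2 difference of 0.80 (0.66 to 0.97) in Mll3/4SI that was not a call. The antibody difference was 0.38 and no longer a call at a finer clustering, and 1.03 with the class of the nearest control cells.

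The CD11b difference was also present between like clusters. In Elane-led cluster 13 the medians were 0.86 in 308 control cells and 2.55 in 176 Mll3/4SI cells, with Itgam at 33.6 and 85.6 CPM. In cluster 4 they were 0.41 and 1.25, with 37.6 and 42.4 CPM. By Itgam UMIs, CD11b in the Elane-led class was 0.33, 0.65, 0.75 and 1.64 at 0, 1, 2 and 3 or more UMIs in control and 1.14, 1.77, 2.0 and 2.80 in Mll3/4SI, so the cells of Mll3/4SI were higher at each step. Itgam was 2.15, 2.24 and 2.97 times as high above the CD11b gate as below it in control, Mll3SI and Mll4SI. Monocyte-like cells had CD11b of -0.42, -0.45, -0.41 and 0.30, again highest in Mll3/4SI and there a call, while Itgam was 16.8, 16, 16.6 and 19.3 CPM.

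**Figure D5:**
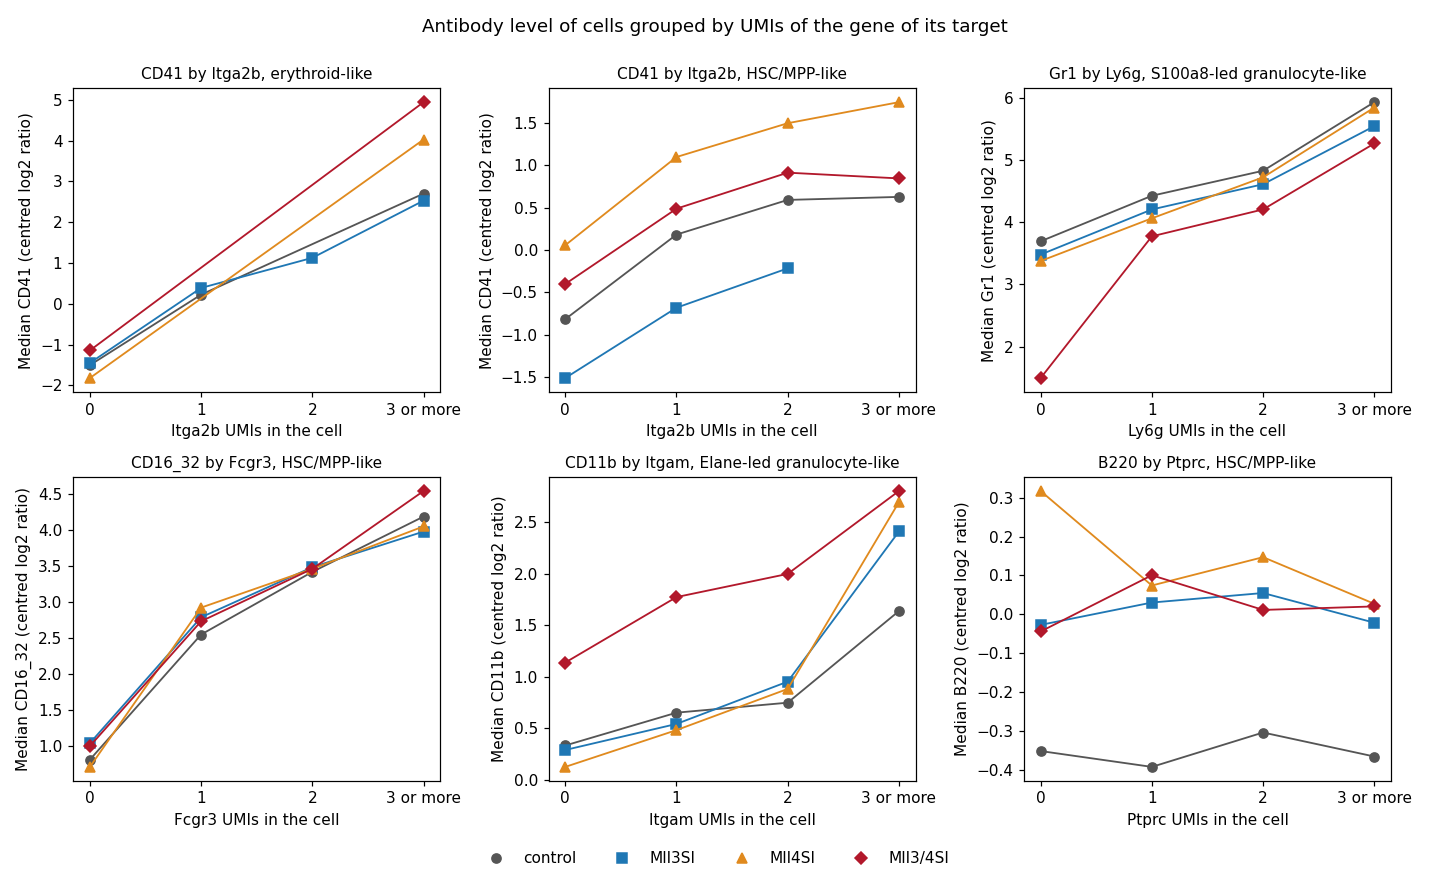
Median centred log2 ratio of an antibody (y axis) in cells with 0, 1, 2 and 3 or more UMIs of the gene of its target (x axis), for 6 pairs of antibody and class, with libraries as colours. Sets under 20 cells are left out. CD41, Gr1, CD16_32 and CD11b are higher at the most UMIs drawn than at 0 in each library, as from 0.81 to 4.19 for CD16_32 in HSC/MPP-like control cells, whereas B220 stays between -0.39 and 0.32 over all Ptprc steps.

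Of the pairs of antibody and own gene, CD11b and Itgam had the highest correlation across cells in each library. Its r was 0.87, 0.85, 0.78 and 0.82, at rank 17, 16, 19 and 14. Over the classes of a library the order was less alike in some, with a Spearman rho of 0.98, 0.90, 0.27 and 0.61, lowest in Mll4SI, where HSC/MPP-like and erythroid-like cells stood above the Elane-led class in Itgam and at the bottom in CD11b. The genes with the highest mean r were S100a8 (0.92), S100a9 (0.91), Ngp (0.89), Camp (0.89) and Cybb (0.89), all known from maturing neutrophils. In erythroid-like cells of Mll4SI, Itgam was at 39.2 against 3.31 CPM in control, Ly6g at 9.34 against 1.24 and Fcgr3 at 7.1 against 2.07 CPM, all calls. They were 3 of 6 members with enough counts, with 6.02% of all genes called, and 0 of 6 were called in Mll3SI (3.1%). The 105 Itgam UMIs lay in 21 of 89 cells, 5 of which held 65.7%, and the CD11b medians were -1.28 against -1.25 in control. With no doublets removed Fcgr3 changed sign, to -0.41. In erythroid-like cells of Mll3/4SI, Ly6g and Fcgr3 had 0 UMIs against 6 and 10 in control, where 3 UMIs would have been 1.06 CPM, and were the 2 members called (6.65% of all genes). For Ly6g the log2 difference of -1.16 became -0.89 with no doublets removed and 0.00 within Hashtag1.

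Basophil/mast-like cells of Mll3/4SI had 38.6 CPM of Itgam against 13.1 in control, on 34 and 25 UMIs, with CD11b of -0.28 and -0.73. With the class of the nearest control cells its log2 difference of 1.49 was 0.85. It was the only call of 6 members in this class (13.5% of all genes), and there was none in Mll3SI or Mll4SI (7.98% and 10%). In B-lymphoid-like cells 0, 3 and 2 of 6 members were called in the 3 comparisons with control (7.62%, 16.4% and 17% of all genes). Of these, Itgam in both libraries and Fcgr3 in Mll4SI changed sign with no doublets removed. The calls rested on 0 to 18 UMIs in the libraries other than control. Among related genes of CD11b, Itgal, the alpha chain of the integrin LFA-1, was called lower in Mll4SI in HSC/MPP-like cells (19.3 against 46.2 CPM), in Elane-led cells (8.72 against 23.2 CPM) and in erythroid-like cells (4.86 against 11.4 CPM).

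CD16_32 was highest in monocyte-like cells, with medians of 5.25, 4.95, 5.32 and 5.40, and high in the S100a8-led class at 4.53, 4.33, 4.76 and 4.93 and the Elane-led class at 4.13, 3.91, 4.13 and 4.92. Erythroid-like and B-lymphoid-like cells were lowest, between 0.09 and 0.57 and between -0.34 and 0.06. Fcgr3 gave nearly the same order of classes, with a Spearman rho of 0.75 to 0.87 per library. It was at 158, 135, 174 and 156 CPM in the Elane-led class, 104, 99.8, 117 and 105 CPM in monocyte-like cells and 0 to 7.1 CPM in erythroid-like cells. The Elane-led cells had more Fcgr3 RNA than the monocyte-like cells but less CD16_32 antibody, in all 4 libraries. In the Elane-led class CD16_32 was 0.80 higher in Mll3/4SI than in control, from 374 to 860 UMIs, with hashtag sets of 4.83 and 4.96 against 4.01 and 4.21, while Fcgr3 was at 156 against 158 CPM and Fcgr2b at 55.2 against 62.6 CPM.

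HSC/MPP-like cells held both CD16_32-low and CD16_32-high cells. The medians were 1.45, 1.5, 1.70 and 1.80, with quartiles of 0.35 to 2.92 in control, and 35.7%, 37.3%, 43.4% and 40.4% of cells lay above the gate. Fcgr3 was at 72.8, 59.9, 110.1 and 76.9 CPM above the gate and at 5.96, 4.71, 9.92 and 2.85 CPM below it, which is 12.2, 12.7, 11.1 and 27.0 times as high. Fcgr2b was 3.08, 2.79, 3.45 and 3.60 times as high above as below. The antibody median was 0.81, 2.55, 3.42 and 4.19 at 0, 1, 2 and 3 or more Fcgr3 UMIs in control, and 0.72, 1.96, 3.16 and 3.65 at the same steps of Fcgr2b. The clusters of this class differed: in control CD16_32 was 1.99 in cluster 8 with 40.3 CPM of Fcgr3 and 1.09 in cluster 7 with 27.7 CPM, while cluster 25 of Mll4SI had 4.04 and 102 CPM. In cluster 7, Fcgr3 of Mll4SI was at 54.5 CPM and CD16_32 at 1.21. CD41 and CD16_32 were high together in 24.4%, 10.5%, 31.0% and 33.2% of HSC/MPP-like cells.

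The clusters found almost only in Mll3/4SI were split in CD16_32. The quartiles were 0.04 and 4.93 around a median of 2.67, and Fcgr3 was 133 CPM above and 3.74 CPM below the gate. Of these cells, 47.2% were high for both CD41 and CD16_32 (44.9% to 49.6%, exact binomial interval), 46.0% for CD41 alone, 5.69% for CD16_32 alone and 1.07% for neither. Cluster 9, with 1273 cells of Mll3/4SI, had CD16_32 of 3.04 with 90.6 CPM of Fcgr3 and 51.5 CPM of Itgam. Cluster 19, with 503 cells, had 1.70 with 49.2 and 24.4 CPM, and the higher CD41, 2.59 against 2.14. Gr1 was low in both, at -0.29 and -0.52, and 4.39% of all these cells passed the Gr1 gate.

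Basophil/mast-like cells had CD16_32 of 3.0, 2.87, 1.84 and 3.05 and Fcgr3 of 136, 116, 75.1 and 106 CPM. The antibody difference of Mll4SI was -1.17, but the control hashtag sets were at 2.59 and 3.81 and those of Mll4SI at 2.06 and 1.66, so it was -0.53 for Hashtag1 and -2.15 for Hashtag2. Over all cells, r of CD16_32 was 0.40, 0.38, 0.23 and 0.45 with Fcgr3 and 0.27, 0.26, 0.15 and 0.28 with Fcgr2b. The genes with the highest mean r were Gsr (0.68), Ly6c2 (0.67), Hp (0.67), Prdx5 (0.65) and Dstn (0.62). Among related genes, Fcer1g, the signalling chain of the activating Fc receptors, was called higher in erythroid-like cells of Mll4SI and Mll3/4SI, at 69.5 and 160.4 against 26.5 CPM. It was also called in B-lymphoid-like cells of Mll4SI, at 45.3 against 18.2 CPM. Fcgr4 was called lower in S100a8-led cells of Mll3/4SI, at 8.11 against 18.5 CPM, and Fcgr1 higher in monocyte-like cells of Mll3SI, at 2.03 against 0.351 CPM on 46 and 7 UMIs.

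Of the 33 related genes listed in all, 22 to 25 had enough counts in a class. In HSC/MPP-like cells 1 was called higher in Mll3SI, 1 higher and 3 lower in Mll4SI, and 2 higher in Mll3/4SI. Of all genes, 0.653%, 3.05% and 1.63% were called there. The S100a8-led class had none in Mll3SI or Mll4SI and 1 higher and 1 lower in Mll3/4SI (0.607%, 2.2% and 1.97% of all genes). Erythroid-like cells had 1 higher in Mll3SI, 4 higher and 1 lower in Mll4SI, and 5 higher and 1 lower in Mll3/4SI. Of all genes, 3.1%, 6.02% and 6.65% were called in them. The median log2 difference of the related genes was between -0.16 and 0.16 in the 7 classes and 3 libraries, and that of all genes between -0.06 and 0.01. The members' medians ran from -0.34 in S100a8-led cells of Mll3/4SI to 1.02 in erythroid-like cells of Mll4SI.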

How the data were processed

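Each of 4 libraries of sorted mouse bone marrow cells was deposited as raw UMI counts per cell barcode for 32285 genes and 15 antibodies, made by the authors with Cell Ranger 7.1.0 on mm10, per the submitters' processing notes. Barcodes were kept with 500 or more genes, 1000 or more gene UMIs and no more than 10% mitochondrial UMIs, and doublets were removed by a Scrublet-type score at 0.8% per 1000 cells (409 to 1001 per library). Cells were clustered on 2000 variable genes, 30 principal components, 15 neighbours and Leiden resolution 1 (scanpy 1.11.5, leidenalg 0.10.2), and clusters were named from marker lists that hold no member gene. The partition changed with the numerical precision of the principal components; double precision was chosen after seeing the data because it repeats exactly. The rule that names clusters and the split of granulocyte-like cells by leading gene were also chosen after the clusters were seen. Medians needed at least 20 cells, and hashtag sets were cut at 117 and 322 UMIs. Intervals are exact Poisson or Clopper-Pearson intervals at 95% and cover counting error only. The named genes are the members, the related genes listed per antibody that passed the size rule or carry a comparison, and the 5 genes of highest mean r per antibody. The members and lists were chosen with earlier results of these data known. On simulated counts of 12428 genes in HSC/MPP-like cells of Mll3/4SI and control, 95% of genes with a true log2 change of 2 were called. For a true change of 1.5 it was 86%. The simulation held counting error only, without variation between cells, clusters or animals. Coordinates are from GENCODE on GRCm38, and promoter stretches from RefSeq on GRCm38.p6. Alternatives were other pseudocounts, filters, centring, clusterings, doublet and hashtag settings. Of them, the limit to clusters with at least 50 cells in both libraries, the share without the barcode with the most antibody UMIs and the other Leiden random seed were chosen after seeing the data.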

Additional observations from a re-analysis of the deposited data

Results flagged for a closer look

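The Gr1 antibody of Mll4SI moved one way in one class and the other way in another. In monocyte-like cells its median was 0.53 above control (1.60 against 1.07), and in the S100a8-led granulocyte-like class it was lower, with a difference of -0.94 (4.33 against 5.26). Both hashtag sets of Mll4SI were above both control sets in monocyte-like cells, at 1.56 and 1.68 against 1.13 and 0.99, and below both in the S100a8-led class, at 4.45 and 4.14 against 5.35 and 5.14. Neither call held throughout. The S100a8-led difference was -0.38 in clusters with at least 50 cells in both libraries and -0.30 as a share of summed antibody UMIs without hashtags, and the monocyte-like one was 0.43 within Hashtag1 and 0.49 with 5 UMIs added. With 1 library per group the difference between these classes was not tested. Ly6c2 was at 1646 against 1524 CPM in the monocyte-like cells, while Ly6g was at 220.4 against 312 CPM in the S100a8-led class.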

How the results depend on the processing

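No paired analysis was possible because each group is 1 library. Of 30 differences of the 6 antibodies in the 5 larger classes (HSC/MPP-like, Elane-led, S100a8-led, monocyte-like and erythroid-like), 8, 6 and 12 were called in Mll3SI, Mll4SI and Mll3/4SI. Of all 13 antibodies, 7.69% to 30.8%, 15.4% to 23.1% and 7.69% to 53.8% were called per class in these libraries. For the 6 antibodies in Mll3SI, the number called was 2 with 5 UMIs added in place of 1 and 5 with Hashtag2 cells only. It was 13 as a share of summed antibody UMIs without hashtags and 14 as that share without the barcode with the most. In Mll4SI it was 15 as a share without hashtags, 17 as a share with them and 16 without the highest barcode. For RNA, 0, 7 and 4 of 29 differences were called. Of all genes, 0.481% to 3.1%, 1.86% to 6.02% and 1.31% to 6.65% were called per class. Among the members, Mll3SI had 1 call with Hashtag1 cells only. Mll4SI had 2 with 10 CPM added or at a minimum of 10 CPM and 3 with no doublets removed. Mll3/4SI had 1 with 10 CPM added or at a minimum of 10 CPM, 7 at Leiden resolution 2 and 8 with classes from the nearest control cells. The median Spearman rho over 6 antibodies and 4 libraries was 0.43, against 0.68 with shares of summed UMIs and 0.58 at Leiden resolution 2. Signs of called differences changed in these cases. CD41 of Mll3/4SI in Elane-led cells was -0.058 with Hashtag1 cells only. For Mll4SI, the log2 difference of Itgam in HSC/MPP-like cells was -0.24 with no doublets removed, -0.088 at Leiden resolution 2 and -0.33 in clusters with at least 50 cells in both libraries, and that of Ly6g in Elane-led cells -0.030 with no doublets removed. Fcgr3 of Mll4SI was -0.41 with no doublets removed and -0.11 with Hashtag2 cells only in erythroid-like cells, and -0.39 with no doublets removed in B-lymphoid-like cells. In B-lymphoid-like cells, Itgam of Mll3/4SI was -0.52 as a mean over cells, -1.30 with no doublets removed and -1.53 with Hashtag1 cells only, and Itgam of Mll4SI -0.28 as a mean over cells and -0.32 with no doublets removed. The causes were not tested. Over the antibody differences, 1415 alternative values kept their side of the threshold, with either sign where neither value was a call. A further 125 newly passed it in the direction of the main value, and 19 passed it without that direction. Of called differences, 54 alternative values no longer passed and 1 changed sign. For RNA the numbers were 1331, 27, 11, 32 and 12, in this order. Gate shares and r held less well: 192 alternative gate shares moved against 144 that did not, 126 of the former with the gate at the 99th percentile, and 20 values of r moved against 36, 15 of them with genes counted as 0 or at least 1 UMI after thinning to 3000 UMIs. Counting limits most the B-lymphoid-like and basophil/mast-like cells.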
